A study of Mus musculus with 6 samples.

Results

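The genes described here encode 10 components and associates of the Polycomb machinery: Ezh1, Ezh2, Eed and Suz12 of the core of Polycomb repressive complex 2 (PRC2), its cofactor Jarid2, Bmi1 and Cbx7 of Polycomb repressive complex 1 (PRC1), Asxl1 and Asxl2 of the Polycomb deubiquitinase, and Setbp1, which was included because it is a recurrent site of secondary mutation in juvenile myelomonocytic leukemia. They were chosen by GENCODE vM21 symbol, with earlier results of these data known, so that counts of calls among them are descriptive. All 10 of 10 were found among the 46078 genes of the count tables and passed the filter on low counts (18097 genes tested). Total RNA of mice was sequenced from 3 libraries labelled JMML, for juvenile myelomonocytic leukemia, and 3 labelled wild type (WT). The series title places them in an age-specific mouse model of persisting fetal blood formation, and the labels name no tissue, age, strain, driver allele or promoter, so no targeted gene could be checked. Whether each replicate came from its own animal is not stated either. The p-values below set the group difference against the scatter among these 6 libraries, which may not be the scatter among animals.

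PRC2 places methyl groups on lysine 27 of histone H3 through Ezh2 or its paralog Ezh1, and Eed and Suz12 hold the enzyme in its active form. PRC1 ubiquitinates histone H2A, its CBX subunits read the PRC2 mark, and the deubiquitinase formed by Bap1 with an Asxl protein removes that ubiquitin. In blood formation Ezh2 is needed most in fetal liver, whereas Ezh1 sustains adult stem cells, Bmi1 and Cbx7 support stem cell self-renewal, and loss-of-function changes of EZH2 and ASXL1 recur in human myeloid cancers.

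Totals lay between 47096464 and 61656272 counts in WT and between 91976512 and 108395459 in JMML. An F closes the identifier of JMML replicates 1 and 2, and an M that of JMML replicate 3 and all WT replicates. JMML replicate 3 carries the same leading identifier characters as WT replicate 3, and the labels do not say what they stand for. At an adjusted p under 0.05 (edgeR quasi-likelihood F test, Benjamini-Hochberg), 26.2% of all tested genes differed, 12.4% higher and 13.8% lower in JMML, and the median log2 fold change was -0.02. With library totals alone as the scaling, the median of all genes shifted by -0.18 and 27.1% of calls were higher in place of 47.4% (7.11% of tested genes higher and 19.1% lower). Levels are given as CPM, counts scaled to the size of the library after TMM normalisation.

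Of the 10 genes, Ezh2, Cbx7, Asxl2 and Setbp1 were lower in JMML and none was higher. The decreases ranged from 1.43-fold for Asxl2 to 3.35-fold for Setbp1. Against 4 of 10 lower, 13.8% of all tested genes were lower. For the 0 higher, 1 member (Eed) was higher at an unadjusted p under 0.05, and the DESeq2 Wald test and limma-voom also gave 0 (15.1% and 12.3% of all tested genes higher). With library totals alone 5 members were lower and 0 higher (19.1% and 7.11% of all tested genes). With the replicate number as a block 4 were lower and 0 higher (8.02% and 7.5% of all tested genes). With the identifier letter as a covariate 2 members were lower and 0 higher (6.91% and 5.35% of all tested genes), and with the 4 libraries marked M alone likewise 2 and 0 (6.44% and 5.02%). Leaving out 1 library at a time left 2 to 3 lower: 2 without WT replicate 2 (6.1% of all tested genes) and 3 without JMML replicate 1 (11.0%), where 1 member, Jarid2, was higher (10.5%). The groups did not overlap for 5 members with JMML below WT and 1 with JMML above, against 24.6% and 22.9% of all tested genes. The members' median log2 fold change was -0.16, beside -0.02 for all tested genes.

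**Figure D1:**
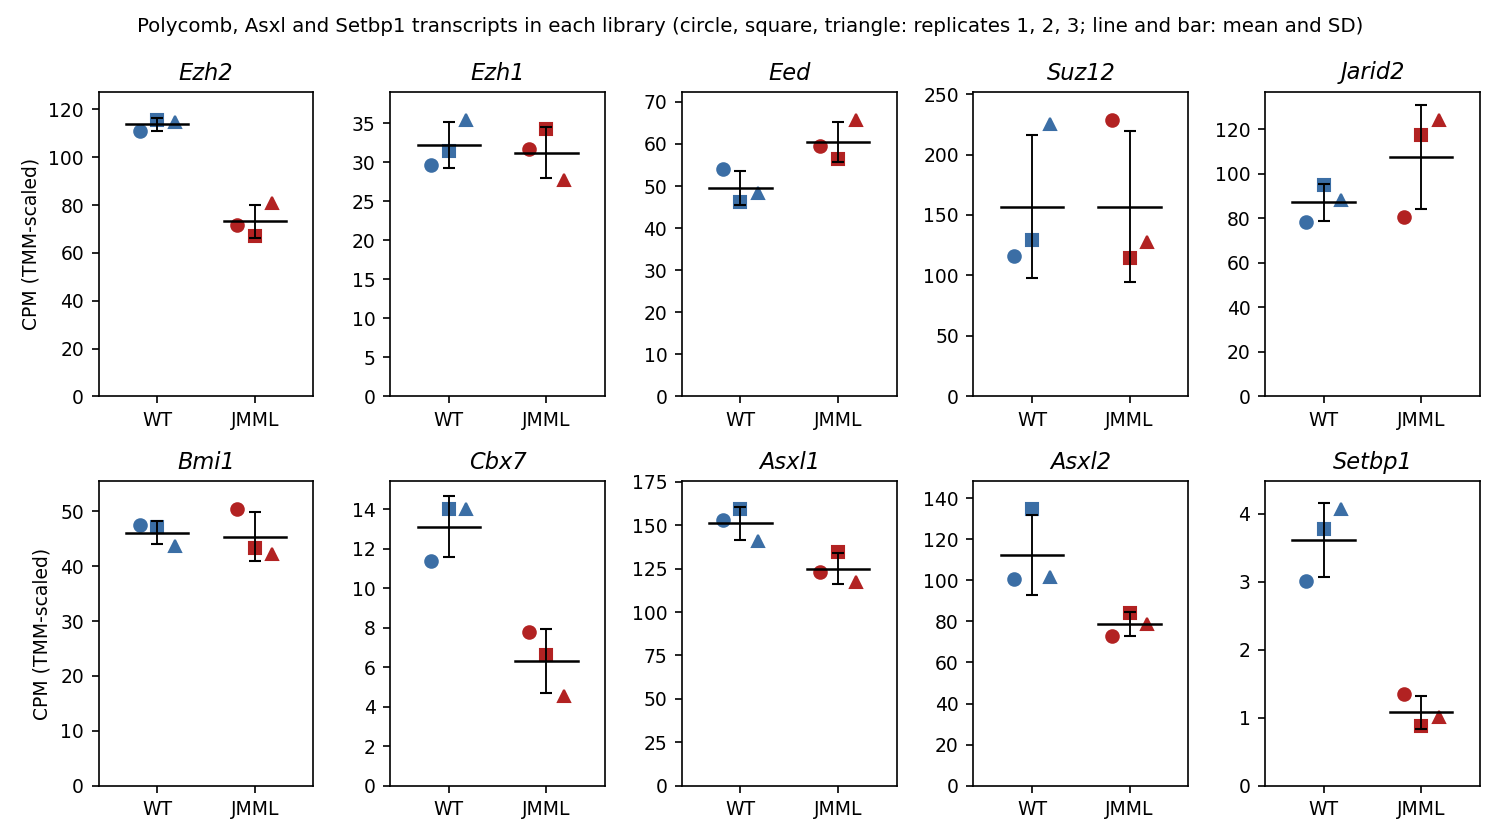
TMM-scaled CPM of each member in each library, with 1 panel per gene, y axes from 0, the 3 replicates of each group as circle, square and triangle, and a line and bar for the mean and SD. JMML points lie below all WT points for Ezh2, Cbx7, Asxl1, Asxl2 and Setbp1 and above them for Eed, and Suz12 has 1 high library in each group.

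The 250 bases before the RefSeq start site (GRCm38.p6) are shown for 3 of the genes that fell and for Ezh1, the paralog of Ezh2 that was not called, so that the upstream letters of the paralogs and of the lower genes can be set side by side. They read 5′ to 3′ on the gene's strand, with CpG dinucleotides in capitals.
Ezh2, chr6:47595031-47595280, minus strand: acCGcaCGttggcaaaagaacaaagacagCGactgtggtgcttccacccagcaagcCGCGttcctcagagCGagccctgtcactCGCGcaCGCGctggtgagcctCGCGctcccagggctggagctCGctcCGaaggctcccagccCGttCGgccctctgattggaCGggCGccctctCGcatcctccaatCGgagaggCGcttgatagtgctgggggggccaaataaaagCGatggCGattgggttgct
Ezh1, chr11:101226464-101226713, minus strand: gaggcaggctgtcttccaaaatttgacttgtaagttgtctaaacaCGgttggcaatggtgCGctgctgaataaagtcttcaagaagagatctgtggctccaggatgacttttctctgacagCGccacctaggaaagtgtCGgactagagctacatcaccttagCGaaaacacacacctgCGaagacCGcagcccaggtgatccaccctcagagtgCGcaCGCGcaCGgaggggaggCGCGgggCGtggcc
Cbx7, chr15:79932647-79932896, minus strand: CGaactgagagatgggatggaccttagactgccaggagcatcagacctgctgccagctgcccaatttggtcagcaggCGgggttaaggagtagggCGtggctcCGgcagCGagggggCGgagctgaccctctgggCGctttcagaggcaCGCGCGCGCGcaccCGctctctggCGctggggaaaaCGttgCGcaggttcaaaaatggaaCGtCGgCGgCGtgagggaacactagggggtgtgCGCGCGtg
Asxl2, chr12:3426607-3426856, plus strand: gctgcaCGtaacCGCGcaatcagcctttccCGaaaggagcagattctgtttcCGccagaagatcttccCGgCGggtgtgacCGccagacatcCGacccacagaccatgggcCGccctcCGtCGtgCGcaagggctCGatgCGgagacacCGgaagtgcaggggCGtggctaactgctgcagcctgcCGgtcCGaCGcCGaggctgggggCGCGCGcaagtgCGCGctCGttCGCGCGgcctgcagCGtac
These windows hold 23 CpG in Ezh2, 14 in Ezh1, 23 in Cbx7 and 31 in Asxl2, against a median of 6 over 32851 such windows, of which 17.9% hold 20 or more. Windows were read for 9 of the 10 members, matched by symbol, and those of Ezh2, Jarid2 and Cbx7 lie inside the span that GENCODE gives the gene, so they precede the RefSeq start but not the first annotated base. Both strands were searched for the E2F letters TTTCCCGC and TTTGGCGC, the ETS letters CCGGAAG and, added after the sequences were read, CCAAT. The Ezh2 window held 3 matches to CCAAT, beginning 90, 64 and 11 bases before the start, while Suz12, Jarid2 and Cbx7 held 1 each. Of all windows 33.85% hold at least 1, and the share that holds 3 was not counted. Of these 9 members only Suz12 had an E2F match (1.3% of all windows), and Asxl1 and Asxl2 each had an ETS match (6.91% of all windows). These matches describe letters and were not tested as binding sites.

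Of the PRC2 methyltransferase genes, Ezh2 was lower in JMML and Ezh1 was not called. Ezh2 (ENSMUSG00000029687, chromosome 6, 47530139 to 47595341, GRCm38) had 111, 116 and 115 CPM in WT replicates 1, 2 and 3 and 71.6, 67.0 and 80.9 CPM in JMML replicates 1, 2 and 3. Every JMML library was below every WT library, and WT values varied little (114 ± 2.63, SD, n = 3). The log2 fold change was -0.64 ± 0.11 (SE) with an adjusted p of 0.00716 in edgeR, a 1.55-fold decrease that remained called when each library was left out in turn. Fitting the identifier letter as well, which rests the difference on JMML replicate 3 against WT, gave -0.49 (adjusted p = 0.0733), and with the 4 libraries marked M alone -0.45 (adjusted p = 0.0952).

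Ezh1 (ENSMUSG00000006920, chromosome 11, 101191115 to 101226463), which methylates the same residue more weakly and is expressed in non-dividing cells, was at 29.7, 31.5 and 35.5 CPM in WT and 31.8, 34.2 and 27.7 CPM in JMML. The groups overlapped, and the log2 fold change of -0.04 had a 95% interval from -0.36 to 0.27 (adjusted p = 0.831 in edgeR). Per kilobase of summed exon length, the Ezh2 to Ezh1 ratio was 4.15, 4.10 and 3.60 in WT and 2.51, 2.18 and 3.25 in JMML. Every WT ratio exceeded every JMML ratio, and an exact two-sided permutation test of log2 ratios gave p = 0.1, the smallest that 3 against 3 libraries allow. The exon models of both genes include all annotated transcripts, so the ratio depends on which transcripts are used.

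Eed and Suz12 did not pass the test. Eed (ENSMUSG00000030619, chromosome 7, 89954654 to 89980983), which binds methylated H3K27 and stimulates the enzyme, had 54.2, 46.2 and 48.4 CPM in WT and 59.4, 56.5 and 65.8 CPM in JMML. The groups did not overlap, JMML being above WT, but the difference missed the threshold (log2 fold change 0.29 ± 0.12 SE, adjusted p = 0.102 in edgeR). The Ezh2 to Eed ratio per kilobase was 1.17, 1.44 and 1.36 in WT and lay between 0.680 and 0.705 in JMML, again without overlap (exact permutation p = 0.1, the smallest possible). Of the 3 ratios computed, that of Asxl2 to Asxl1 overlapped, at 0.307 to 0.395 in WT and 0.276 to 0.314 in JMML (exact permutation p = 0.2). Suz12 (ENSMUSG00000017548, chromosome 11, 79993106 to 80034123), the scaffold of PRC2, had 116, 130 and 225 CPM in WT and 229, 114 and 127 CPM in JMML. WT replicate 3 and JMML replicate 1 were high and the other 4 libraries lay between 114 and 130 CPM. Its log2 fold change was 0.00 with a 95% interval from -0.78 to 0.78 (adjusted p = 0.998 in edgeR). The neighbouring genes Utp6 and Crlf3, looked at after this pattern was seen, lay at 76.9 to 98.5 and 91.5 to 108 CPM and did not show it.

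Jarid2 (ENSMUSG00000038518, chromosome 13, 44729474 to 44921643), a cofactor that directs PRC2 to chromatin, had 78.5, 95.1 and 88.4 CPM in WT and 80.9, 118 and 124 CPM in JMML. JMML replicate 1 lay within the WT range and the other 2 JMML libraries above it. The difference of 0.30 ± 0.17 (log2, SE) was not called (adjusted p = 0.232 in edgeR), and without JMML replicate 1 it was 0.49 and called (adjusted p = 0.0320). Among the other PRC2 genes, the accessory subunit gene Phf19 rose from 20.9 ± 0.689 to 30.8 ± 2.03 CPM (SD, n = 3; log2 fold change 0.56, adjusted p = 0.0161), a call kept in 11 of 16 alternatives and lost without WT replicate 2 (adjusted p = 0.0569), with library totals alone (0.0890), with the replicate block (0.0514), with the letter (0.0864) and in M libraries only (0.0849). The histone-binding subunits Rbbp4 and Rbbp7 were at 281 and 149 CPM in WT and 312 and 158 CPM in JMML, without a call. Of 6 PRC2 core genes 1 was lower and 0 were higher, and of 6 accessory genes 1 was higher and 0 were lower, beside 13.8% lower and 12.4% higher over all tested genes, so that these counts are near the background. With the letter and in M libraries only, 0 core and 0 accessory genes were called. The median log2 fold changes were 0.04 and -0.09.

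**Figure D2:**
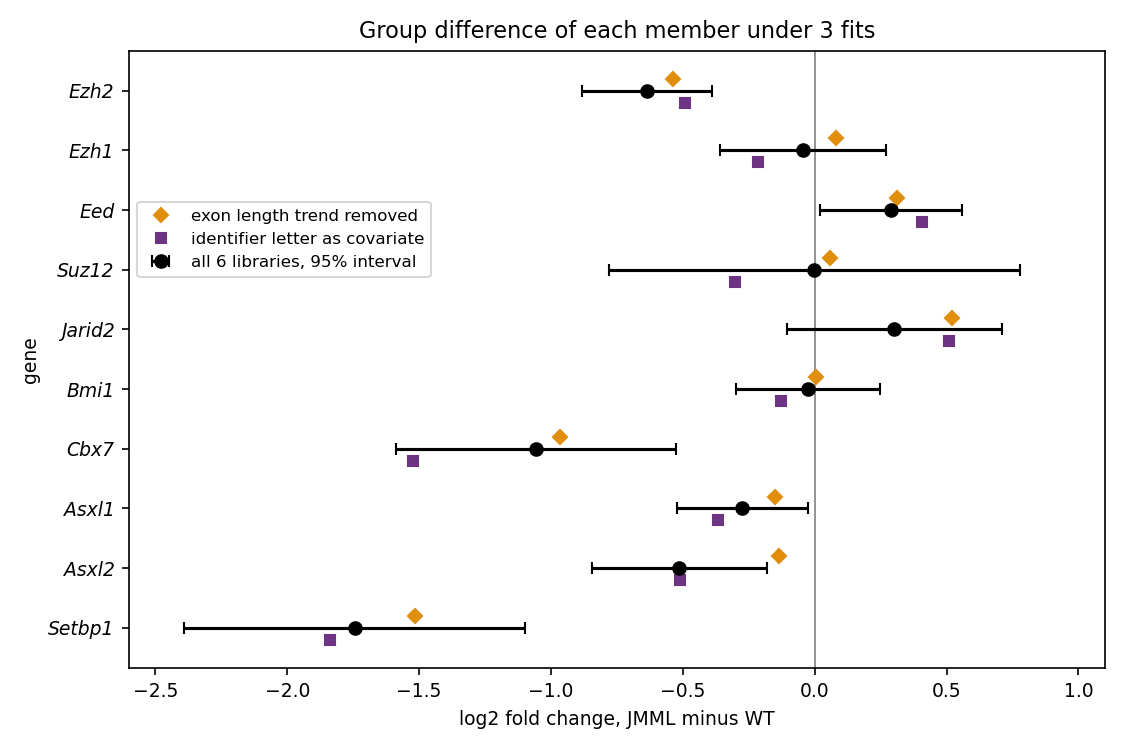
Log2 fold change of JMML minus WT for each member, with the fit to all 6 libraries and its 95% interval (black), the fit with the exon length trend removed (diamonds) and the fit with the identifier letter as covariate (squares). Setbp1 and Cbx7 lie lowest in all 3 fits, and Asxl2 moves from -0.51 to -0.14 when the length trend is removed.

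In PRC1, 6 of the 9 listed genes of the readers and of the PHC and SCM subunits fell, while Bmi1 was not called. Bmi1 (ENSMUSG00000026739, chromosome 2, 18677018 to 18686629), the PCGF subunit that stimulates the H2A ubiquitin ligase, had 47.4, 47.2 and 43.8 CPM in WT and 50.4, 43.3 and 42.2 CPM in JMML. The groups overlapped, and the log2 fold change of -0.03 had a 95% interval from -0.30 to 0.25 (adjusted p = 0.887 in edgeR). None of the 8 genes for the ligases Ring1 and Rnf2 and the 6 PCGF subunits was called, beside 13.8% lower and 12.4% higher over all tested genes. At an unadjusted p under 0.05, 1 was higher and 3 were lower, and DESeq2 called 1 higher and 0 lower (15.1% and 16.9% of all tested genes). With the length trend described further on removed 1, Pcgf5, was higher (0.62, adjusted p = 0.0378; 13.5% of all tested genes higher). Pcgf3 and Pcgf6 were called lower with library totals alone (adjusted p = 0.0350 and 0.0427), and Pcgf3 with the stricter filter (adjusted p = 0.0441). The nearest to a call were Pcgf1, of a variant PRC1 (0.59 ± 0.19, log2, SE; adjusted p = 0.0518), and Pcgf3 (-0.47 ± 0.16, adjusted p = 0.0677). Pcgf2, the closest paralog of Bmi1, was scarce at 1.83 ± 0.567 CPM in WT and 0.879 ± 0.362 in JMML (SD, n = 3) and was not called (adjusted p = 0.0927). Pcgf5 and Pcgf6 had log2 fold changes of 0.32 and -0.35, neither called.

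Cbx7 (ENSMUSG00000053411, chromosome 15, 79915807 to 79971119), a chromodomain reader of methylated H3K27, had 11.4, 14.0 and 14.0 CPM in WT and 7.77, 6.61 and 4.56 CPM in JMML. No JMML library reached the lowest WT value. The log2 fold change was -1.06 ± 0.23 (SE; adjusted p = 0.0164 in edgeR), a 2.08-fold decrease. The call ended only without WT replicate 2 among the 16 alternative settings (-1.02, adjusted p = 0.0558), and adjusting for the identifier letter gave -1.52 (adjusted p = 0.0219). The 3′ end of Cbx7 overlaps that of Apobec3, an antiviral deaminase gene on the opposite strand, by 100 bases. Apobec3, looked at for that overlap, went from 92.0 ± 16.1 CPM in WT to 62.9 ± 6.97 in JMML (SD, n = 3; adjusted p = 0.0351). How the counting treated shared bases is not given in the sources used here.

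Of the CBX paralogs of Cbx7 read here, Cbx6 and Cbx2 fell and Cbx8 was not called. Cbx6 (chromosome 15, 79823896 to 79834688), which lies close to Cbx7, fell from 65.7, 44.8 and 49.6 CPM to 17.5, 11.7 and 19.2 CPM (log2 fold change -1.73 ± 0.23 SE, adjusted p = 0.00404). Npcd, which overlaps Cbx6 on the same strand, had 0 counts in all 6 libraries. Cbx2 (chromosome 11, 119022962 to 119031270), a CBX that compacts chromatin, fell from 9.79, 9.08 and 12.3 CPM to 2.80, 3.30 and 5.43 CPM (-1.43 ± 0.29, adjusted p = 0.0125). The Cbx2 call ended with the letter as a covariate (-0.94, adjusted p = 0.0863) and in M libraries only (-0.90, adjusted p = 0.0931). For Cbx6 and Cbx2, every JMML library was below every WT library. Cbx8 (chromosome 11, 119036305 to 119040969) was at 7.40 ± 1.57 CPM in WT and 11.6 ± 2.99 in JMML without a call (adjusted p = 0.0900).

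**Figure D3:**
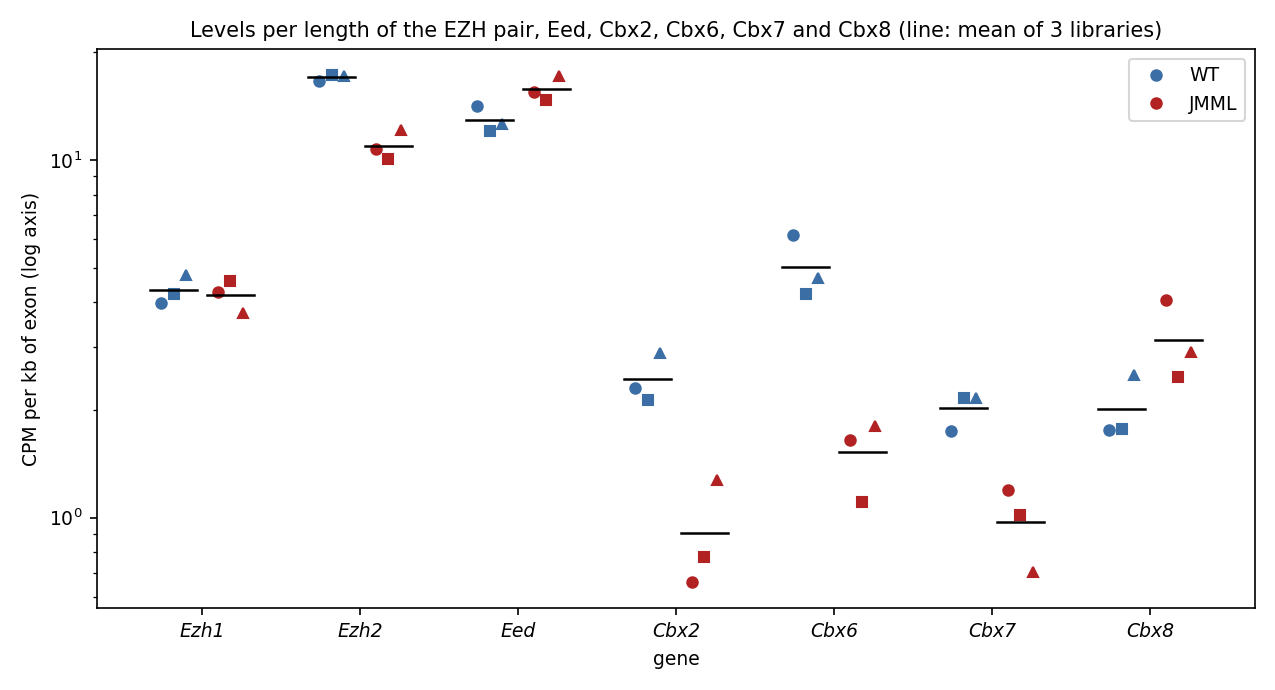
CPM per kilobase of summed exon length (log axis) of Ezh1, Ezh2, Eed, Cbx2, Cbx6, Cbx7 and Cbx8 in each library, with WT in blue, JMML in red, symbols for replicates 1, 2 and 3 and lines for group means. Ezh2, Cbx2, Cbx6 and Cbx7 are lower in all 3 JMML libraries, while Ezh1 and Cbx8 overlap between groups.

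Of the 9 listed genes of canonical PRC1, 6 were lower and 0 were higher in edgeR, with a median log2 fold change of -1.05 (all tested genes: 13.8% lower, 12.4% higher, median -0.02). At an unadjusted p under 0.05, 1 was higher and 7 were lower, and DESeq2 called 0 higher and 7 lower. Besides Cbx2, Cbx6 and Cbx7, the lower ones were the Polyhomeotic gene Phc1 (-1.01 ± 0.20 SE, adjusted p = 0.0118) and the SCM genes Scmh1 (-0.91 ± 0.14, adjusted p = 0.00640) and Scml2 (-1.80 ± 0.28, adjusted p = 0.00614). Scml2 lies on the X chromosome. Phc3, which was noted after its values were seen, had 23.1, 67.7 and 20.3 CPM in WT and 17.1, 16.2 and 12.7 CPM in JMML, so that WT replicate 2 stood apart, and it was not called (adjusted p = 0.0744). With the letter as a covariate 4 of the 9 were lower (6.91% of all tested genes), and the median was -1.17. With the length trend removed 6 were lower (12.3% of all tested genes), with a median of -0.95. Of the 9 genes of variant PRC1, 4 were lower and 1 was higher, beside 13.8% and 12.4% of all tested genes: Mga, a scaffold of the PCGF6 complex (-0.76 ± 0.09 SE), Bcorl1 (-1.33 ± 0.17), Bcor, a corepressor of the PCGF1 complex (-0.51 ± 0.10), and Auts2 (-1.61 ± 0.27) fell, and Yaf2, chosen after its value was seen, rose (0.43 ± 0.11). Without any 1 library Yaf2 lost its call, and Bcor kept it in 3 of those 6 fits. With the letter, 2 of the 9 were lower and 0 higher (6.91% and 5.35% of all tested genes), and in M libraries only likewise 2 and 0. Auts2 (adjusted p = 0.0693 with the letter) and Bcor (0.116) lost their calls, Bcor also with the length trend removed (0.0530). Bcor and Bcorl1 are X-linked.

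**Figure D4:**
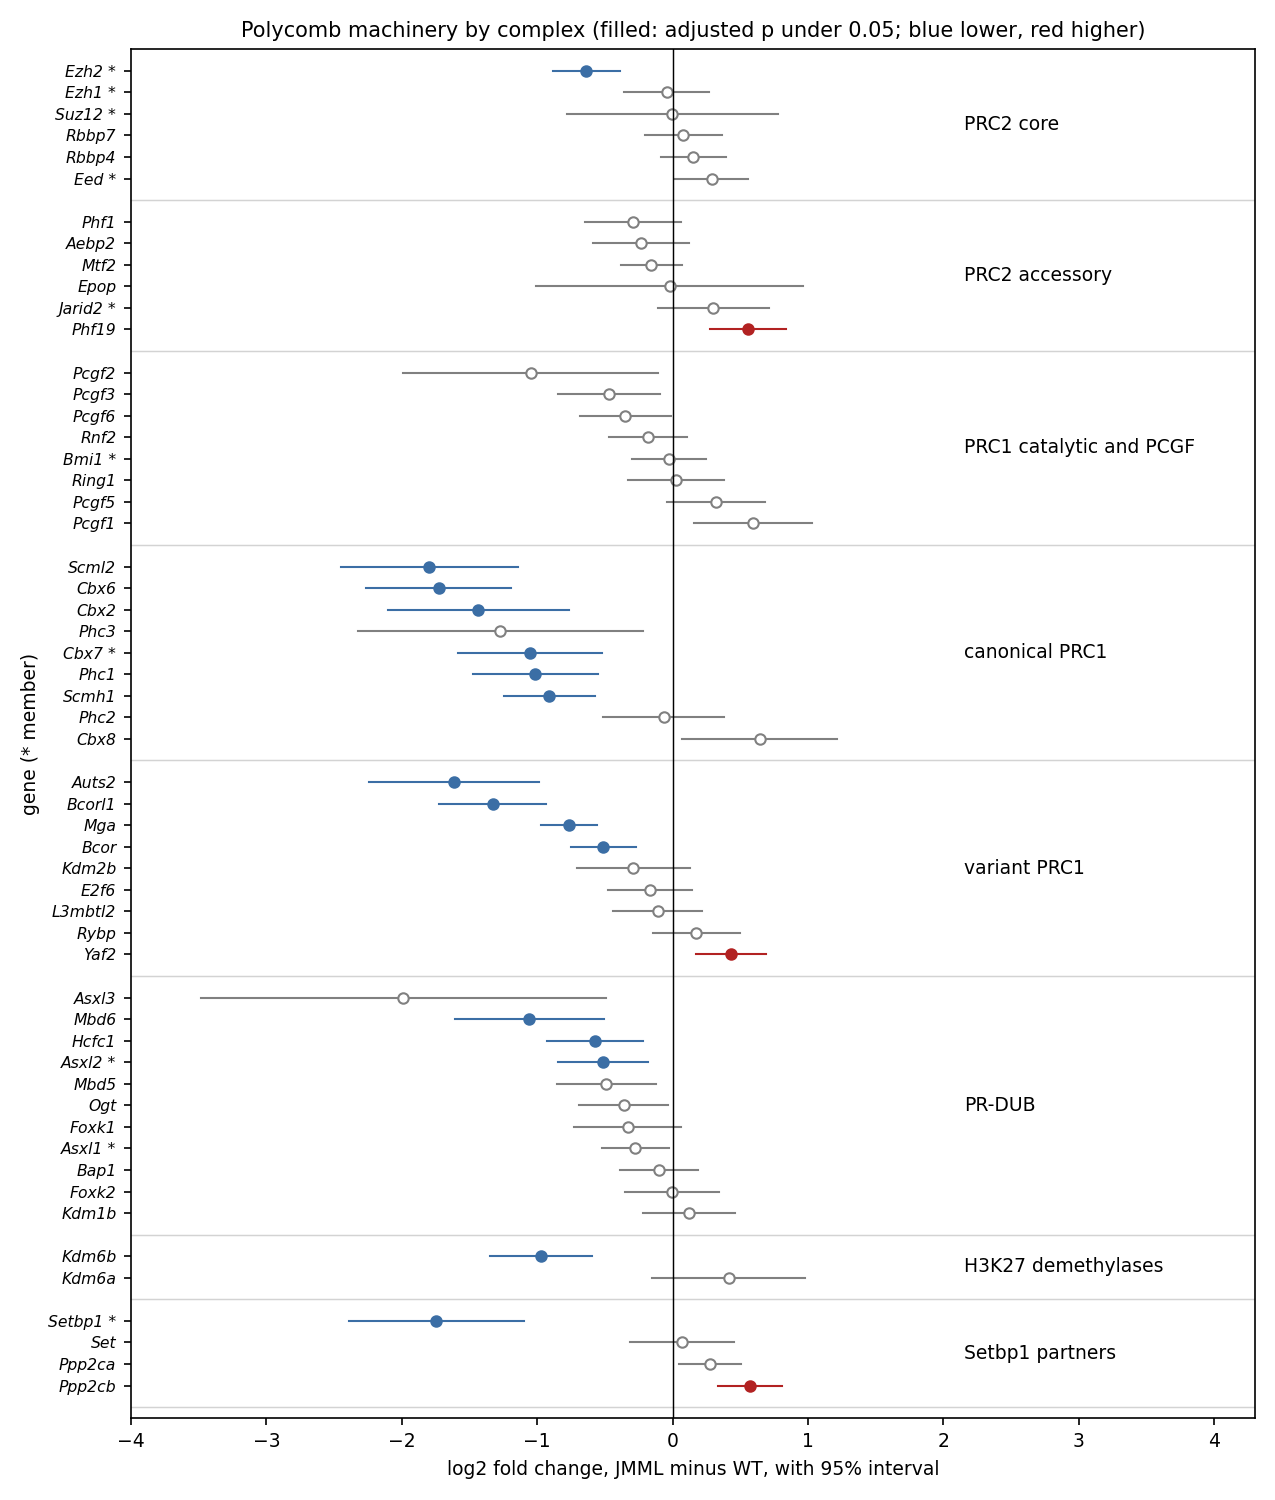
Log2 fold change of JMML minus WT with its 95% interval for the members (asterisks) and the other Polycomb machinery genes, grouped by complex, with filled symbols for genes at an adjusted p under 0.05 (blue lower, red higher). The last group holds Setbp1 with its partners Set, Ppp2ca and Ppp2cb and is not a Polycomb complex. In canonical PRC1 6 of 9 genes are filled blue, and of the 8 PRC1 ligase and PCGF genes none is filled. Over all tested genes 13.8% were lower and 12.4% higher.

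Of the Asxl genes, Asxl2 was lower in JMML and Asxl1 missed the threshold. Asxl1 (ENSMUSG00000042548, chromosome 2, 153345829 to 153404007), the adaptor that activates Bap1 and is truncated in myeloid cancers, had 153, 159 and 141 CPM in WT and 123, 135 and 117 CPM in JMML. The groups did not overlap, but the log2 fold change of -0.27 ± 0.11 (SE) missed the threshold (adjusted p = 0.0945 in edgeR). It was called with library totals alone (-0.46, adjusted p = 0.0359) and with the stricter filter (-0.33, adjusted p = 0.0481). Asxl2 (ENSMUSG00000037486, chromosome 12, 3426857 to 3506852), its broadly expressed paralog, had 101, 135 and 101 CPM in WT and 72.8, 84.3 and 78.9 CPM in JMML. WT replicate 2 was the highest, and no JMML library reached WT. The difference of -0.51 ± 0.14 (log2, SE; adjusted p = 0.0359) lost its call without any 1 of the 6 libraries (adjusted p between 0.0600 and 0.109) and with the letter as a covariate (-0.51, adjusted p = 0.169). Asxl3 was near the limit of detection, with 6 to 14 counts in JMML and 16 to 33 in WT, and was not called (log2 fold change -1.99 ± 0.64 SE, adjusted p = 0.0567), though it was without JMML replicate 1 (adjusted p = 0.0475).

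Of the 11 listed genes for the deubiquitinase Bap1 and its partners, 3 were lower and 0 were higher, with a median of -0.36 (all tested genes: 13.8% lower, 12.4% higher). Beside Asxl2 these were Mbd6 (-1.06 ± 0.24, log2, SE; adjusted p = 0.0182) and the X-linked Hcfc1 (-0.57 ± 0.15, adjusted p = 0.0307), which kept their calls in 3 and 1 of the 6 fits that leave out a library. Bap1 itself, which lies outside the naming rule, was not called (-0.10 ± 0.12, log2, SE; adjusted p = 0.574 in edgeR). Of the 11, 0 were higher and 7 lower at an unadjusted p under 0.05, and DESeq2 called 0 higher and 4 lower (15.1% and 16.9% of all tested genes). With the letter as a covariate 0 of the 11 were called in either direction (6.91% of all tested genes lower), and with the length trend removed 1 was lower (12.3%). The H3K27 demethylase gene Kdm6b fell from 41.2 ± 5.91 to 21.0 ± 2.76 CPM (SD, n = 3; log2 fold change -0.97 ± 0.16 SE, adjusted p = 0.00716). Kdm6a, an X-linked demethylase gene that escapes X inactivation, had 121 and 111 CPM in JMML replicates 1 and 2, whose identifiers end in F, 61.5 in JMML replicate 3 and 67.1 to 82.7 in WT. It was not called (0.41, adjusted p = 0.238), with the letter as a covariate it stood at -0.26, and without JMML replicate 3 it was called higher (0.68, adjusted p = 0.0178).

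Setbp1 (ENSMUSG00000024548, chromosome 18, 78750380 to 79109391), whose product binds the SET oncoprotein and so limits the phosphatase PP2A, showed the greatest decrease among the 10 genes. It had 3.01, 3.77 and 4.07 CPM in WT and 1.35, 0.874 and 1.01 CPM in JMML, from 196, 197 and 237 counts in WT and 111, 92 and 92 in JMML. Every JMML library lay below every WT library. The log2 fold change was -1.75 ± 0.28 (SE; adjusted p = 0.00640 in edgeR), a 3.35-fold decrease that was called in all 16 alternative settings. Of its partners, the PP2A catalytic subunit gene Ppp2cb rose from 71.0 ± 6.19 to 106 ± 2.92 CPM (SD, n = 3; adjusted p = 0.00893; 0.0519 in M libraries only). Ppp2ca (0.28 ± 0.10, log2, SE; adjusted p = 0.0773) and Set (0.07 ± 0.16, adjusted p = 0.773) were not called. Among 5 genes that acquire secondary mutations in this leukemia, the members Setbp1 and Ezh2 were lower, beside 13.8% lower and 12.4% higher over all tested genes. Asxl1, Jak3 (-0.42 ± 0.17, adjusted p = 0.105) and Dnmt3a were not called. With the letter as a covariate 1 of the 5 was lower (6.91% of all tested genes). Dnmt3a, the 1 gene of the list outside the naming rule, had 22.6 CPM in JMML replicate 1, 64.6 and 66.0 in the other JMML libraries and 79.1 to 106 in WT (log2 fold change -0.79 ± 0.37 SE, adjusted p = 0.157). These counts measure transcripts and hold no information on mutations.

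Members have long exon models, and long transcripts were lower in JMML as a whole. Among tested genes, the median log2 fold change was 0.17 for summed exon lengths under 1 kb, 0.03 from 2 to 4 kb, -0.05 from 4 to 8 kb, -0.22 from 8 to 16 kb and -0.42 above 16 kb. The share of genes lower in JMML was 5.7% in the shortest bin and 33.0% in the longest. The members' lengths ran from 3828 bases for Eed, at the 52.7th percentile of tested genes, to 15941 bases for Asxl2, at the 98.3rd. Asxl2 stood at -0.51, below the median of -0.22 of its length class, but near the long end of that class, and with the trend removed it was at -0.14 (adjusted p = 0.441). Jarid2, at 9715 bases, went from 0.30 to 0.52 (adjusted p = 0.0608). Ezh2, Cbx7 and Setbp1 stayed called with the trend removed, at -0.54, -0.96 and -1.52 (adjusted p = 0.0132, 0.0212 and 0.00919), so that 3 members were lower and 0 higher, against 12.3% and 13.5% of all tested genes. The trend was removed by a smooth offset over exon length in each library, and its origin was not tested.

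**Figure D5:**
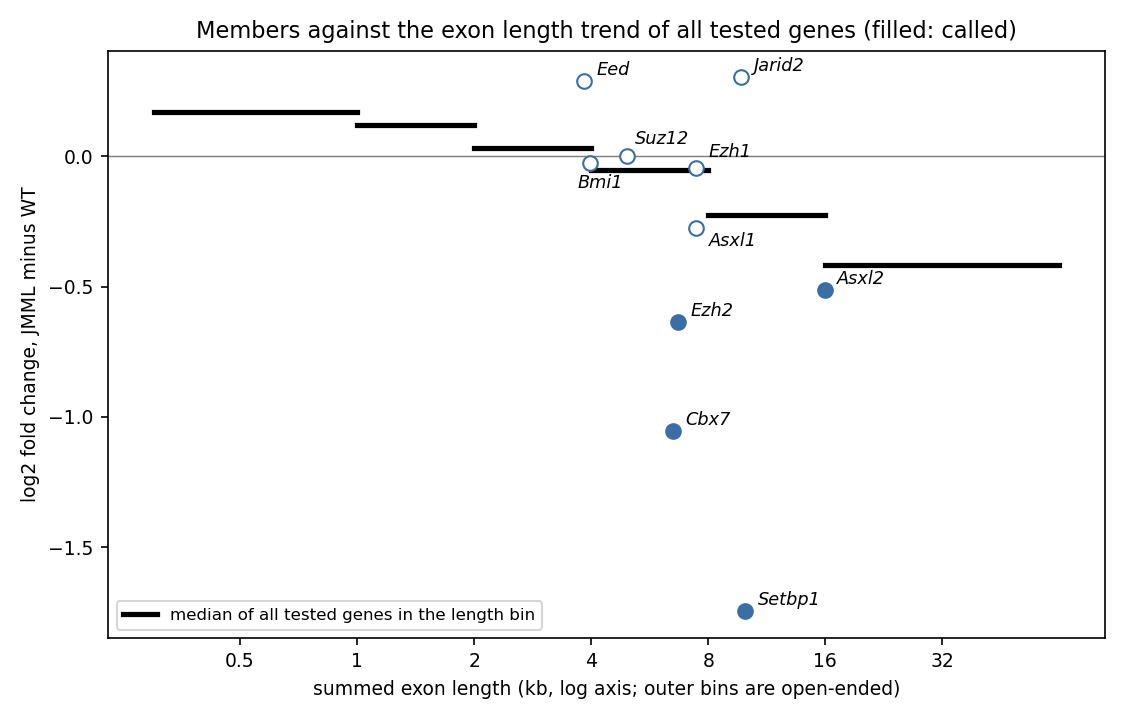
Log2 fold change of JMML minus WT against summed exon length (log axis) for the members (filled: called), with bars for the median of all tested genes in each length class. Asxl1, Asxl2, Ezh2, Cbx7 and Setbp1 lie below the bars of their classes, Eed and Jarid2 lie above theirs, and Ezh1, Suz12 and Bmi1 lie near theirs.

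Compared per kilobase of summed exon length, Suz12 was the most abundant member in WT at 31.7 ± 12.0 CPM per kb (SD, n = 3). It was followed by Asxl1 (20.3 ± 1.27), Ezh2 (17.0 ± 0.393), Eed (12.9 ± 1.07), Bmi1 (11.6 ± 0.516), Jarid2 (8.99 ± 0.859), Asxl2 (7.04 ± 1.22), Ezh1 (4.33 ± 0.396), Cbx7 (2.02 ± 0.237) and Setbp1 (0.364 ± 0.0549). Of neighbours in this order, only the ranges of Jarid2 and Asxl2 overlapped in WT. In JMML, Ezh2 (10.9 ± 1.06 CPM per kb) ranked below Eed (15.8 ± 1.24), Bmi1 (11.4 ± 1.12) and Jarid2 (11.1 ± 2.42). Its range overlapped those of Bmi1 and Jarid2. Among other neighbours in JMML, Bmi1 overlapped Jarid2, Asxl1 (16.8 ± 1.18) overlapped Eed, and Asxl2 (4.93 ± 0.360) overlapped Ezh1 (4.20 ± 0.440).

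The libraries differed in cell type markers as well, and less RNA per cell cannot be told apart from fewer cells of a type in bulk samples. All 8 megakaryocyte markers, 9 of 10 B-cell markers, all 9 T-cell markers, 5 of 9 erythroid markers and 5 of 6 endothelial markers were lower, while 6 of 7 monocyte markers, 6 of 11 neutrophil markers and 4 of 6 dendritic cell markers were higher. In the stem and progenitor list 6 of 9 were lower and 1 was higher. All 8 megakaryocyte markers were lower in each of the 16 alternatives, but other counts moved. Over those alternatives, lower markers numbered 2 to 9 for B cells (3 with the letter), 2 to 9 for T cells (3 without WT replicate 2), 3 to 6 for endothelium and 3 to 6 for stem and progenitor cells. Lower erythroid markers numbered 0 with the letter and without WT replicate 2, 1 without JMML replicate 3 or WT replicate 1, and 9 without JMML replicate 1. Higher markers numbered 4 to 7 for monocytes, 3 to 8 for neutrophils (3 without WT replicate 1 or 2) and 3 to 4 for dendritic cells. Summed B-cell markers stood at 107, 90.9 and 392 CPM in WT replicates 1, 2 and 3 and between 17.1 and 27.3 CPM in JMML. Summed megakaryocyte markers stood at 287, 242 and 782 CPM in WT and between 13.2 and 27.6 CPM in JMML. WT replicate 3 was the highest WT library in both and also in Suz12 (225 CPM against 116 and 130). JMML replicate 1 had 229 CPM of Suz12, with summed B-cell markers at 17.1 and megakaryocyte markers at 27.6 CPM. Across the WT libraries Ezh2 was at 111 to 116 CPM and Cbx7 at 11.4 to 14.0 CPM. The part of cell composition in the members' differences was not tested.

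Ezh2 is usually coexpressed with proliferation genes. Of 17 such genes 1 was lower and 0 were higher in edgeR, with a median log2 fold change of -0.03 (all tested genes: 13.8% lower, 12.4% higher). At an unadjusted p under 0.05, 1 was higher and 1 lower. The lower gene was Mki67 (-0.45 ± 0.13 SE, adjusted p = 0.0377), which lost its call without any 1 library and with the length trend removed (-0.23). Cdk1 (0.30) and Ccnb1 (0.25), kinase and cyclin of mitosis, and the helicase subunit Mcm4 (-0.34) were not called. The summed list stood at 6570, 6382 and 7738 CPM in JMML replicates 1, 2 and 3 and at 8164, 7296 and 7726 CPM in WT.

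A list of genes known to be repressed by Polycomb was read as well. Cdkn2a, the cell cycle inhibitor locus held down by Bmi1, had 0 counts in all 6 libraries, where 3 counts would be 0.0285 to 0.0575 CPM. Of the 6 tested genes of this list 3 were lower and 0 were higher, namely Pax5 (-6.76), Ebf1 (-5.37) and Hoxa10 (-1.66 ± 0.33 SE, adjusted p = 0.0124; 0.0551 with the letter), beside 13.8% lower and 12.4% higher over all tested genes. At an unadjusted p under 0.05, 0 were higher and 4 lower, and DESeq2 also called 0 higher and 4 lower (16.9% of all tested genes lower). Pax5 and Ebf1 are also B-cell factors and moved with the B-cell markers given above. Hoxa7 (-1.04 ± 0.34, adjusted p = 0.0597) was not called.

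By root mean square difference of centred log2 CPM over the 6 libraries, the genes close to Ezh2 among 11116 included Strbp (0.051) and Akap11 (0.061). Those most like Ezh1 were Cacfd1 (0.045), Ankrd50 (0.049) and Cmtm3 (0.056), and those most like Bmi1 were Mlh3 (0.024), Tldc1 (0.028) and Prkar1a (0.037). The genes most like Cbx7 were farther away: Lpp (0.12), St8sia6 (0.122) and Ypel2 (0.127). These distances describe 6 libraries that share 2 groups and carry no test.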

How the data were processed

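Per the labels' protocols, libraries were made from total RNA with a stranded kit. The authors deposited raw counts per Ensembl gene. The submitters' processing notes name GRCm38, STAR 2.5.3a, StringTie 1.3.3b and DESeq2 1.22.2 among their tools, without roles. Counter, annotation release and strand setting: not given in the sources used here. Of counts from 1 to 20, 51.6% to 58.8% were even, so mates may have been counted separately and counts then overstate fragments.

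Of 46078 identifiers, 98.2% matched GENCODE vM21 (GRCm38), which gave symbols, positions and summed exon lengths. The deposited counts went into edgeR 4.0.16 under R 4.3.3 (quasi-likelihood F test, filterByExpr, TMM, all 6 libraries, no covariate, Benjamini-Hochberg adjustment over 18097 genes, threshold 0.05). Each SE is the size of the log2 fold change divided by the root of its F, and 95% intervals use the t distribution. On simulated data over 18426 genes, the fit recovered 4% of 50 genes changed 1.5-fold and 58% at 2-fold. The simulation set a smaller coefficient of variation between libraries than the 29.4% estimated for these data. It also changed far fewer genes than were called here, so these rates are not the power of the fit on these libraries. Alternatives used DESeq2 1.42.0, limma 3.58.1 (voom), other scalings and filters, the replicate block, the identifier letter (F or M), only M libraries, a loess offset (span 0.5) over exon length, and each library left out.

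Members and lists were chosen with earlier results of these data known. Named genes are the members, up to 4 genes of each Polycomb, mutation, target and proliferation list with the smallest p, CBX, PCGF and Asxl paralogs, and the 3 nearest genes to each of 4 members; others are marked as chosen later. Marker lists are given by counts only. Some genes that the lists or the naming rule would hold are not reported here.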

Additional observations from a re-analysis of the deposited data

How the results depend on the processing

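Calls of Cbx6, Scmh1, Bcorl1, Mga, Kdm6b, Pax5, Ebf1 and Setbp1 held in all 16 alternatives, and that of Cbx7 in 15, Ezh2 in 14 and Asxl2 in 6. Members lower numbered 4 in the main analysis and 2 with the letter as a covariate and in M libraries only, where the lone JMML library is assumed to vary like WT, and between 2 and 3 when 1 library was left out. Members higher numbered between 0 and 1 when 1 library was left out. All genes called numbered 4737, against 2809 with the replicate block, 2219 with the letter, 2310 in M libraries only, and between 2203 and 4003 when 1 library was left out (2203 for WT replicate 2, 3136 for WT replicate 1, 3043 for JMML replicate 2). Of the 45 other machinery genes, counted with the Setbp1 partners Set, Ppp2ca and Ppp2cb, 3 were higher and 12 lower (12.4% and 13.8% of all tested genes). The 3 higher were Phf19, Yaf2 and the PP2A subunit gene Ppp2cb. Ppp2cb was the 1 higher gene under library totals alone, the replicate block and the letter. Higher genes numbered 1 under library totals alone (7.11% of all tested genes), 1 under the replicate block (7.5%), 1 under the letter (5.35%), 0 in M libraries only (5.02%), and between 1 and 3 when 1 library was left out. Lower genes numbered 6 under the letter (6.91%), 6 in M libraries only (6.44%), and between 9 and 12 when 1 library was left out (6.1% to 11.0%). M libraries only and the left-out libraries rest on fewer samples; the cause was otherwise not tested.

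Replicate numbers gave no sign of pairing the libraries: correlations of same-numbered deviations from group means were -0.199, 0.045 and -0.143. The third is for JMML 3 and WT 3, whose identifiers share their leading characters. Deviations within so few libraries are tied to one another, so these values cannot exclude pairing. With the block, 4 members stayed lower.

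Uncalled genes near 0 changed sign. With no low-count filter Ezh1, Suz12 and Bmi1 stood at 0.039, 0.073 and 0.056, and with the length trend removed at 0.079, 0.057 and 0.006. With library totals alone Rbbp4, Rbbp7 and Set stood at -0.028, -0.10 and -0.11. Kdm6a stood at -0.26 with the letter and -0.22 in M libraries only. With 1 library left out, Ezh1 lay between -0.10 and 0.071, Suz12 between -0.36 and 0.39, Bmi1 between -0.095 and 0.046, Rbbp7 between -0.011 and 0.16, and Set between -0.03 and 0.22. Depth limits the named genes with fewest counts: Asxl3 had at most 33 counts in any library, Hoxa10 80, Pcgf2 134, Auts2 138, Hoxa7 233 and Setbp1 237.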
